A study of Rattus norvegicus with 23 samples.

Results

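Expression of lysosomal enzymes, lysosomal membrane proteins and subunits of the lysosomal proton pump was measured in the lungs of elderly rats after inhalation of a titanium dioxide (TiO2) nanostructured aerosol. The genes were chosen by symbol from a list of 46, of which 45 were found on the array and tested among 23031 genes in all. Sgsh, a heparan sulfate sulfatase, was not found under its symbol. Total RNA came from the accessory lobe of the lung of male F344 rats that were 19 months old when inhalation began, with 1 rat on each single-colour array. Exposed rats breathed the aerosol through the nose at 10 mg/m3 in daily sessions of 6 h on 5 days of each week for 4 weeks, and control rats breathed filtered air. Lungs were taken on the day exposure ended (D0, 6 control and 5 exposed rats) or 28 days later (D28, 6 control and 6 exposed rats). For the 6 exposed arrays of D28 the titles and descriptions give D28, whereas the source field names day 0. They were grouped by title, and every exposed value of D28 and every comparison between the days rests on that reading. The lobe is whole tissue in which many cell types are mixed, so that more cells of a type and more RNA per cell cannot be told apart.

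Lysosomes are the acid compartments in which cells digest material they have taken up. Cathepsins cut proteins, glycosidases and sulfatases take apart sugar chains, and other enzymes release lipids, while the vacuolar proton pump keeps the lumen acid. Alveolar macrophages, which clear inhaled particles from the airspaces, are rich in lysosomes, and type II pneumocytes store surfactant in lysosome-related organelles. TFEB and its relatives drive transcription of many lysosomal genes by binding the CLEAR element, which is built around the letters CACGTG.

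The probes that the array used for Npc2 and for both forms of the d subunit of the pump are shown because 2 of these genes were over-expressed on D0 and the third is the close relative of one of them. Each is 60 bases long and lies on the minus strand of rn4, the build named in the file headers: Npc2 at chr6:108794590-108798310, a span of 3721 bases, Atp6v0d2 at chr5:34476269-34476328, and Atp6v0d1 at chr19:35342854-35343006. The longest run of letters that the d subunit probes shared was 6 bases.
Npc2: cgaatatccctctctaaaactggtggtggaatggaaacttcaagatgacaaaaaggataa
Atp6v0d2: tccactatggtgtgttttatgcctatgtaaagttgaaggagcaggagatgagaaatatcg
Atp6v0d1: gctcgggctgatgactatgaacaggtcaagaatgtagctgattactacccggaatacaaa

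Signals are log2 intensities after quantile normalization, and an increase of 1 is a doubling. Genes were called over- or under-expressed at a Benjamini-Hochberg adjusted p below 0.05 over all genes tested with a fold change (FC) of at least 1.5 in either direction, from 1 limma model of all 23 arrays. On D0, 3 of the 45 genes were over-expressed in exposed rats (Ctsk, Npc2 and Atp6v0d2), where 1.09% of all genes were, and 0 were under-expressed, where 0.695% of all genes were. With the adjusted p alone 7 genes were higher, beside 1.51% of all genes (Ctss, Gusb, Naglu and Scarb2 in addition), and 0 were lower, beside 1.34%. The exposed and the control arrays of D0 did not overlap, with the exposed ones higher, for 12 genes (Atp6v0d2, Cd63, Ctsb, Ctsd, Ctsk, Ctss, Gaa, Glb1, Gusb, Naglu, Npc2 and Tfeb), against 1.94% of all genes, and with the exposed ones lower for 0, against 2.37%. In total, 42 of the 45 genes had a log2 FC above 0, as did 49.9% of all genes, and the median log2 FC was 0.22 for the 45 genes and -0.00077 for all genes.

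On D28, only Ctsk among the 45 was over-expressed (0.486% of all genes were) and 0 were under-expressed (0.269% of all genes were). Ctse and Naglu joined it with the adjusted p alone, beside 0.782% of all genes higher, and 0 were lower, beside 0.534%. Acp5, Ctsk and Naglu had exposed arrays that all lay above the controls of D28, against 0.677% of all genes, and 0 had them all below, against 0.543%. The log2 FC was above 0 for 40 of the 45 genes and for 48.9% of all genes, with a median of 0.23 for the 45 genes and -0.0056 for all genes. At an unadjusted p below 0.05, 19 genes were higher and 0 lower on D0 (5.61% and 6.34% of all genes), and 20 were higher and 1 was lower on D28 (4.82% and 6.18% of all genes). Apart from the 3 genes called, the highest log2 FC on D0 was 0.50, for Ctsh.

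**Figure D1:**
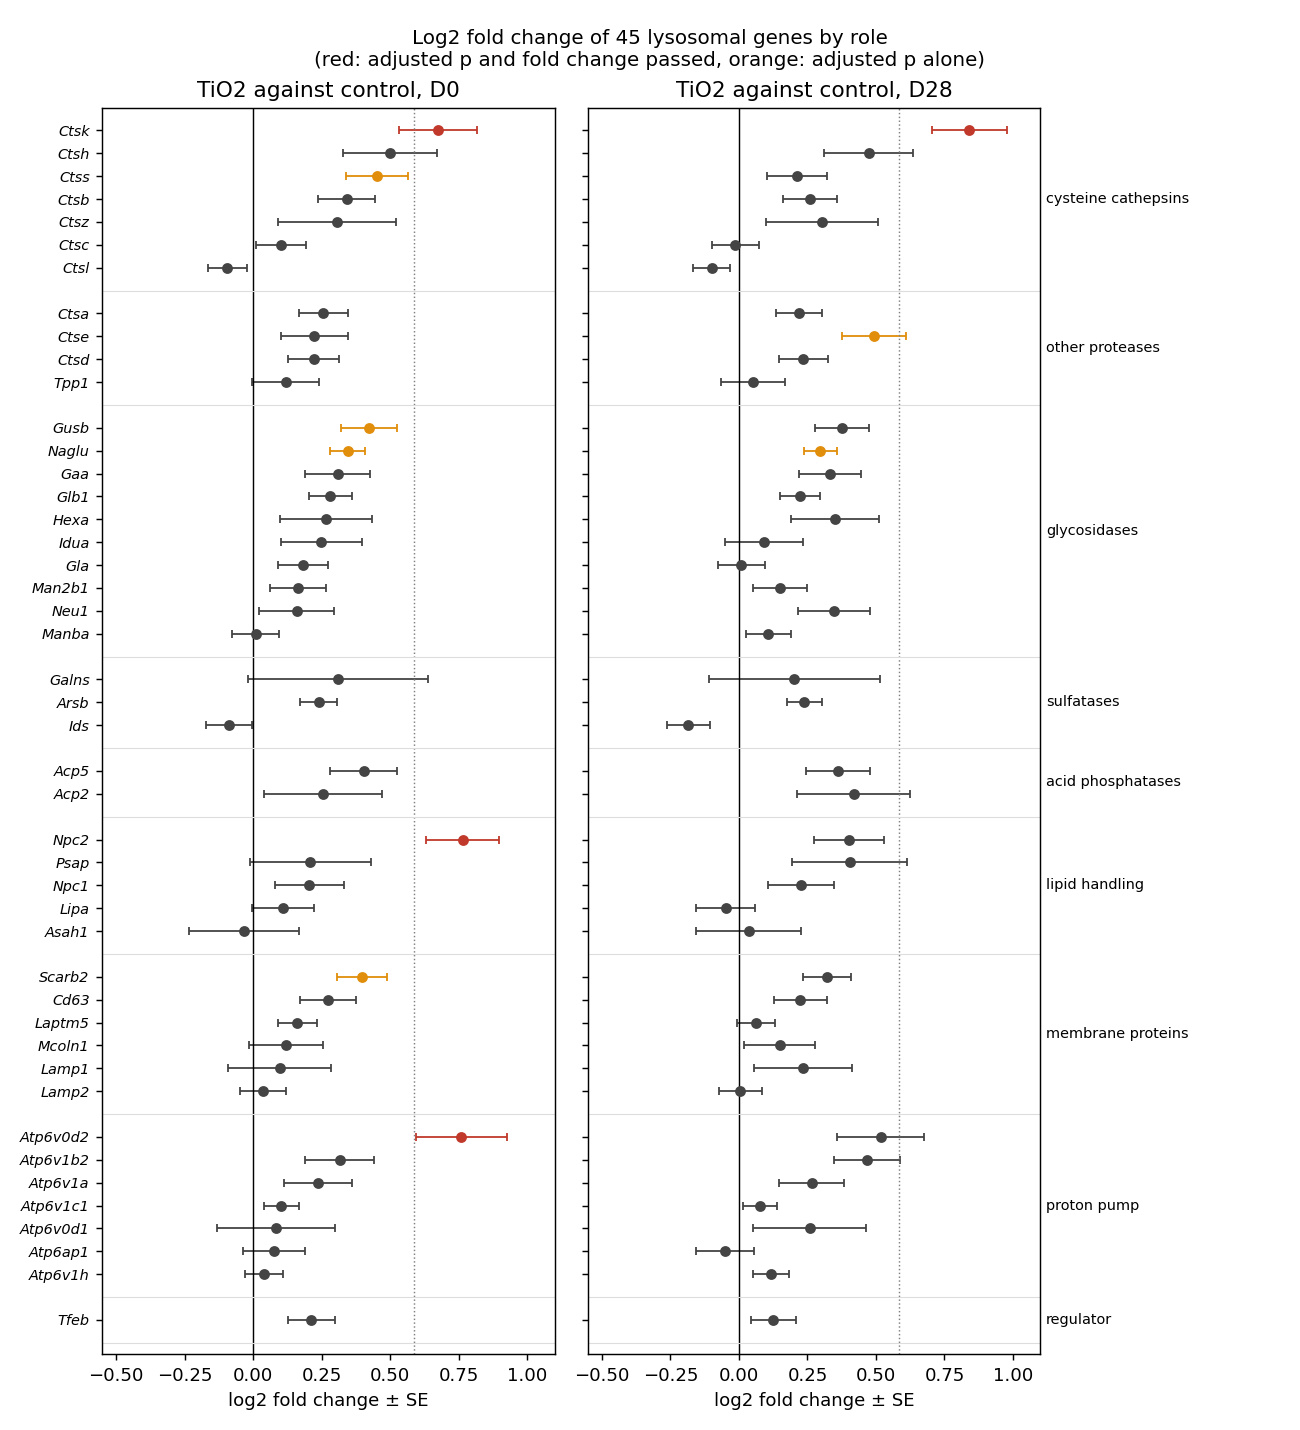
Log2 fold change (x axis) with its standard error for each of the 45 lysosomal genes (y axis), by role, on D0 (left) and D28 (right). Red points passed the adjusted p and the fold change of 1.5 (dotted line), and orange points passed the adjusted p alone. Most points lie to the right of 0 on both days, and Ctsk is the only gene in red on both.

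Among the 7 cysteine cathepsins, Ctsk rose on both days. It encodes cathepsin K, a protease that cleaves collagen and is best known from osteoclasts. The control rats of D0 had a lowest log2 signal of 11.05, a median of 11.21 and a highest of 11.51, whereas the 5 exposed rats had 11.94, 11.90, 12.03, 11.76 and 12.04. On D28 the controls ran from 10.78 through a median of 11.39 to 11.51 and the exposed rats from 11.73 through 12.13 to 12.45. Every exposed array thus lay above every control array of its day. The log2 FC was 0.67 ± 0.14 (SE) on D0 (FC = 1.59, limma adjusted p = 0.0096) and 0.84 ± 0.14 on D28 (FC = 1.79, adjusted p = 0.0027). Within the 4 slides that held both groups on D0 it ranged from 0.55 to 0.68, and within the 3 of D28 from 0.65 to 1.09. When only the 12 arrays of D28 were fitted the adjusted p of Ctsk was 0.0645 at the same log2 FC. Ctsk was thus not called on D28 in that fit, and the reason was not tested.

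Ctss, the neighbour of Ctsk, encodes cathepsin S, which trims the invariant chain of MHC class II molecules. Their probes lie 60.8 kb apart on chromosome 2 of rn4. The controls of D0 had log2 signals from 12.80 to 13.04 (median 12.90) and the exposed rats 13.44, 13.19, 13.06, 13.83 and 13.28, with no overlap. The log2 FC was 0.45 ± 0.11 on D0 (FC = 1.37, adjusted p = 0.032) and 0.21 ± 0.11 on D28 (adjusted p = 0.51), when the groups overlapped. Within slides the difference on D0 ran from 0.17 to 0.93, the latter on the slide of exposed replicate 4, the highest array. Without that array the log2 FC on D0 was 0.33 with an adjusted p of 0.098. The adjusted p also lay above the limit without exposed replicate 1 or 5 or control replicate 1, 2, 4 or 6 of D0 (0.052 to 0.076).

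The 5 other cysteine cathepsins did not pass the adjusted p on either day. Ctsh, which encodes an aminopeptidase, had a log2 FC of 0.50 ± 0.17 on D0 and 0.47 ± 0.16 on D28, and Ctsb, a broad lysosomal protease, 0.34 ± 0.10 and 0.26 ± 0.10. For Ctsz, a carboxypeptidase, the values were 0.30 ± 0.21 and 0.30 ± 0.20. Ctsc, which activates the serine proteases of granulocytes, stood at 0.10 ± 0.09 and -0.01 ± 0.09, and its 3 probes were not of 1 sign on D28. Ctsl, another broad protease, was the lowest of the 45 genes on D0, at -0.09 ± 0.07, and stood at -0.10 ± 0.07 on D28. The cathepsins of this class therefore spanned a log2 range from -0.10 to 0.84 on D28.

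Among the other proteases, Ctsd encodes cathepsin D, the main aspartic protease of lysosomes. Its log2 signal lay between 16.95 and 17.23 (median 17.06) in the controls of D0 and was 17.27, 17.28, 17.24, 17.34 and 17.32 in the exposed rats, without overlap. On D28 the controls went from 16.57 to 17.21 (median 17.01) and the exposed rats from 17.05 to 17.40 (median 17.23). Exposure gave a log2 FC of 0.22 ± 0.09 on D0 (FC = 1.17, adjusted p = 0.30) and 0.24 ± 0.09 on D28 (FC = 1.18, adjusted p = 0.26), so neither passed. Ctse, an aspartic protease of the endosomes of immune cells and of some epithelia, had exposed arrays between 10.20 and 10.58 on D28 (median 10.38) and controls between 9.63 and 10.23 (median 9.88). Of 6 exposed arrays 5 lay above every control, and the log2 FC was 0.49 ± 0.12 (FC = 1.41, adjusted p = 0.037). The adjusted p lay between 0.053 and 0.088 when any array of D28 was left out other than control replicate 2 or exposed replicate 5. On D0 the log2 FC of Ctse was 0.22 ± 0.12 (adjusted p = 0.54). Ctsa, the protective protein of neuraminidase and beta-galactosidase, had a log2 FC of 0.26 ± 0.09 and 0.22 ± 0.09, and Tpp1, a tripeptidyl peptidase, of 0.12 ± 0.12 and 0.05 ± 0.12 on D0 and D28.

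**Figure D2:**
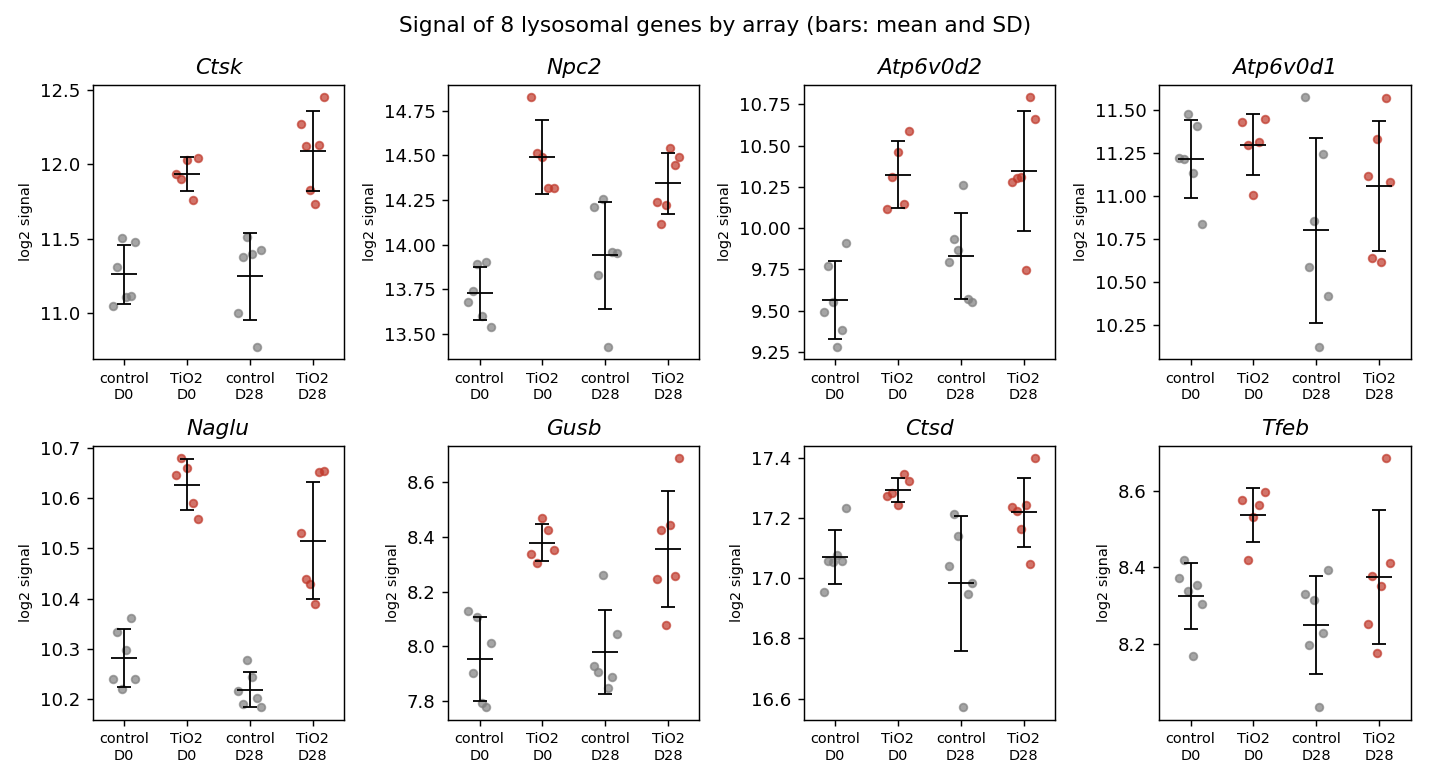
Log2 signal (y axis, a scale of its own for each gene) of 8 lysosomal genes on each array, by group (x axis); points are arrays and bars the mean and SD, with controls in grey and exposed rats in red. Ctsk and Naglu show no overlap between exposed and control arrays on either day, Npc2 and Atp6v0d2 show none on D0, and Atp6v0d1 overlaps on both.

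All 10 glycosidases had a log2 FC above 0 on both days, with a median of 0.26 on each. Naglu removes N-acetylglucosamine from heparan sulfate and had the smallest residual SD of the 45 genes, 0.073. Controls of D0 lay between 10.22 and 10.36 (median 10.27), and the exposed rats had 10.65, 10.68, 10.66, 10.59 and 10.56. On D28 the controls ran from 10.19 to 10.28 (median 10.21) and the exposed rats from 10.39 to 10.65 (median 10.48). Every exposed array lay above every control of its day. The log2 FC was 0.35 ± 0.06 on D0 (FC = 1.27, adjusted p = 0.0034) and 0.30 ± 0.06 on D28 (FC = 1.23, adjusted p = 0.015), each under the FC limit; when only the arrays of D28 were fitted the latter had an adjusted p of 0.22. Its 2 probes gave 0.36 ± 0.08 and 0.33 ± 0.10 on D0, and each of the slides with both groups gave a difference between 0.25 and 0.42.

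Gusb, beta-glucuronidase, had control arrays between 7.78 and 8.13 on D0 (median 7.96) and exposed arrays at 8.34, 8.30, 8.47, 8.43 and 8.35. Its log2 FC was 0.42 ± 0.10 on D0 (FC = 1.34, adjusted p = 0.026) and 0.38 ± 0.10 on D28 (FC = 1.30, adjusted p = 0.061), when 3 of 6 exposed arrays lay above every control. With the dim probes kept, its log2 FC was 0.28 on D0 (adjusted p = 0.099) and 0.11 on D28 (adjusted p = 0.70). Its adjusted p on D0 was 0.051 to 0.067 without control replicate 2, 4 or 5 or exposed replicate 3, 4 or 5 of that day. The other 8 glycosidases did not pass on either day. Gaa, which digests glycogen, and Glb1, the beta-galactosidase, had separate groups on D0, with log2 FC of 0.31 ± 0.12 and 0.28 ± 0.08. On D28 Gaa stood at 0.33 ± 0.11 and Glb1 at 0.22 ± 0.07. Hexa, a subunit of beta-hexosaminidase, had 0.27 ± 0.17 and 0.35 ± 0.16, and Neu1, the lysosomal sialidase, 0.16 ± 0.14 and 0.35 ± 0.13. For the iduronidase Idua the values were 0.25 ± 0.15 and 0.09 ± 0.14, for the alpha-galactosidase Gla 0.18 ± 0.09 and 0.01 ± 0.09, for Man2b1, an alpha-mannosidase, 0.16 ± 0.10 and 0.15 ± 0.10, and for Manba, the beta-mannosidase, 0.01 ± 0.09 and 0.11 ± 0.08.

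Of the 3 sulfatases tested, which take sulfate off glycosaminoglycans, none passed. Arsb had a log2 FC of 0.24 ± 0.07 on D0 (adjusted p = 0.059) and 0.24 ± 0.06 on D28 (adjusted p = 0.073). Its 2 probes gave 0.19 ± 0.10 and 0.29 ± 0.11 on D0, and 0.39 ± 0.09 and 0.09 ± 0.11 on D28. For Galns 3 of 6 control arrays and 5 of 5 exposed arrays of D0 were well above background, and so were 4 of 6 in both groups of D28, whereas all other genes of the 45 were so on all 23 arrays. Its log2 FC was 0.31 ± 0.33 on D0 and 0.20 ± 0.31 on D28. Ids, which acts on heparan and dermatan sulfate, had a negative log2 FC on both days, of -0.09 ± 0.08 and -0.18 ± 0.08. On D28 its unadjusted p in limma was 0.030 and its adjusted p 0.36, and its 2 probes gave -0.32 ± 0.15 and -0.05 ± 0.11. Of the acid phosphatases, Acp5 encodes the tartrate-resistant enzyme of osteoclasts and macrophages. Its exposed arrays of D28 ran from 14.05 to 14.59 (median 14.21) above controls from 13.82 to 13.99 (median 13.88), with a log2 FC of 0.36 ± 0.12 (adjusted p = 0.16). On D0 it had 0.40 ± 0.12 (adjusted p = 0.085). Acp2, the ubiquitous lysosomal acid phosphatase, had 0.25 ± 0.22 and 0.42 ± 0.21.

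Of the 5 lipid handling genes only Npc2 passed, on D0. Its product is a small soluble protein that binds cholesterol in the lysosome and passes it to the membrane protein NPC1. Controls of D0 had log2 signals from 13.54 to 13.90 (median 13.71), and the exposed rats had 14.82, 14.51, 14.49, 14.32 and 14.31. The lowest exposed array was above the highest control, and the log2 FC of 0.76 ± 0.13 (FC = 1.70, adjusted p = 0.0020) was the largest of the 45 genes. On D28 the controls reached from 13.43 to 14.26 (median 13.96) and the exposed rats from 14.12 to 14.54 (median 14.34). These groups overlapped, and the log2 FC was 0.40 ± 0.13 (FC = 1.32, adjusted p = 0.14). Within slides the log2 difference of Npc2 ran from 0.53 to 1.08 on D0 and from 0.16 to 0.47 on D28. Npc1 itself had 0.21 ± 0.13 and 0.23 ± 0.12 on D0 and D28. Psap, the precursor of the saposins that help to degrade sphingolipids, had 0.21 ± 0.22 and 0.40 ± 0.21, Lipa, the acid lipase, 0.11 ± 0.11 and -0.05 ± 0.11, and Asah1, acid ceramidase, -0.03 ± 0.20 and 0.04 ± 0.19.

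The 6 membrane proteins all had a log2 FC above 0 on both days, and only Scarb2 passed the adjusted p. It encodes the receptor that carries glucocerebrosidase to the lysosome. The controls of D0 had log2 signals from 8.09 to 8.58 (median 8.30) and the exposed rats 8.78, 8.65, 8.74, 8.81 and 8.57, so that 1 exposed array lay just under the highest control. Its log2 FC came to 0.40 ± 0.09 on D0 (FC = 1.32, adjusted p = 0.019) and 0.32 ± 0.09 on D28 (FC = 1.25, adjusted p = 0.074). Without exposed replicate 1 or 4 of D0 the adjusted p on D0 was 0.052 or 0.058. Cd63, a tetraspanin of late endosomes, had 0.27 ± 0.10 and 0.22 ± 0.10, and Laptm5, a protein of the lysosomes of blood cells, 0.16 ± 0.07 and 0.06 ± 0.07. The main structural proteins of the lysosomal membrane had log2 FC of 0.10 ± 0.19 and 0.23 ± 0.18 for Lamp1 and 0.04 ± 0.08 and 0.01 ± 0.08 for Lamp2. The calcium channel Mcoln1 stood at 0.12 ± 0.14 and 0.15 ± 0.13.

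Of the 7 genes of the proton pump, only Atp6v0d2 was over-expressed. It encodes the second form of the d subunit, which joins the part of the pump in the membrane to the stalk and is known from osteoclasts, macrophages and kidney. Controls of D0 lay between 9.28 and 9.91 (median 9.52), and the exposed rats had 10.12, 10.31, 10.46, 10.14 and 10.59, without overlap. On D28 controls ran from 9.55 to 10.26 (median 9.83) and exposed rats from 9.75 to 10.79 (median 10.30), and 5 of 6 exposed arrays lay above every control. The log2 FC was 0.76 ± 0.17 on D0 (FC = 1.69, adjusted p = 0.012) and 0.52 ± 0.16 on D28 (FC = 1.43, adjusted p = 0.13). Within slides it ran from 0.35 to 1.03 on D0 and from 0.30 to 0.87 on D28. Without exposed replicate 4 of D28, which lay inside the control range, the log2 FC of D28 was 0.64 with an adjusted p of 0.038, and the count of over-expressed genes on D28 was 2.

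Atp6v0d1, the form of the same subunit made in most cells, had controls of D0 between 10.84 and 11.47 (median 11.22) and exposed rats at 11.43, 11.30, 11.002, 11.31 and 11.45. On D28 the controls spread from 10.12 to 11.57 (median 10.72) and the exposed rats from 10.61 to 11.57 (median 11.10). No separation was seen on either day, with a log2 FC of 0.08 ± 0.22 on D0 (adjusted p = 0.98) and 0.26 ± 0.21 on D28 (adjusted p = 0.73), and the difference between the responses of both forms was not tested. Leaving out 1 array moved the log2 FC of Atp6v0d1 between 0.01 (without control replicate 6 of D0) and 0.16 (without exposed replicate 3) on D0, and between 0.12 (without control replicate 4 of D28) and 0.41 (without control replicate 1) on D28, and with the slide as a block it was 0.13 and 0.11. In the part of the pump that splits ATP, Atp6v1b2 had 0.32 ± 0.13 and 0.47 ± 0.12 (adjusted p = 0.25 and 0.055) and Atp6v1a 0.24 ± 0.12 and 0.27 ± 0.12. Its stalk and regulatory subunits Atp6v1c1 and Atp6v1h had 0.10 ± 0.06 and 0.04 ± 0.07 on D0 and 0.08 ± 0.06 and 0.12 ± 0.07 on D28. The accessory protein Atp6ap1 had 0.08 ± 0.11 and -0.05 ± 0.11.

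Tfeb was the transcription factor of the set. Its log2 signals were 8.17 to 8.42 in the controls of D0 (median 8.35) and 8.58, 8.42, 8.53, 8.56 and 8.60 in the exposed rats. On D28 they were 8.03 to 8.39 in controls (median 8.27) and 8.18 to 8.69 in exposed rats (median 8.36). The groups touched but did not overlap on D0 and overlapped on D28, with a log2 FC of 0.21 ± 0.09 (adjusted p = 0.27) and 0.13 ± 0.08 (adjusted p = 0.65).

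The letters CACGTG were searched in the 250 bases before the start of each gene, in RefSeq promoters of GRCr8, because most of the 45 genes had a log2 FC of the same sign. CACGTG reads the same on both strands, as does TCACGTGA, which contains it. Of the 45 genes 36 were in the table, and 7 of them held CACGTG (19.4%, against 5.79% of 27457 promoters), 3 held TCACGTGA (8.33% against 0.743%) and 0 held TCACGTGA with a further G before and C after it (0.24% of all promoters). The windows of Atp6v0d1, Ctsd and Lamp1, which held TCACGTGA, are shown because they carry the longest match. Capitals mark each CACGTG, or TCACGTGA where the flanking letters also matched. Each window is on the minus strand of GRCr8, Atp6v0d1 at chr19:50357275-50357320, Ctsd at chr1:206968822-206968998 and Lamp1 at chr16:83075076-83075266.
Atp6v0d1: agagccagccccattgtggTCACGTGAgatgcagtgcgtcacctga
Ctsd: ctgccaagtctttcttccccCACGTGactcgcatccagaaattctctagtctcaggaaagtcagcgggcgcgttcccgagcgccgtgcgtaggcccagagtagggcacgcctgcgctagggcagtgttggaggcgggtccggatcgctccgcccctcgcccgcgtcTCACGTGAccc
Lamp1: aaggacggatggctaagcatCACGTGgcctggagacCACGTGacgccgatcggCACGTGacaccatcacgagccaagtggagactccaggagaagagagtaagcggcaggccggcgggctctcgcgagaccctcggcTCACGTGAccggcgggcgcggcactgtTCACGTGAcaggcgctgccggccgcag

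The Lamp1 window held 5 copies, between 33 and 178 bases before the start, the Ctsd window 2, at 5 and 152 bases, and the Atp6v0d1 window 1, at 47 bases. Cd63, Gaa, Glb1 and Mcoln1 held 1 copy each. The median GC content of the windows was 60.2% for the 36 genes and 52.0% for all promoters, and its part in the counts was not tested. The 7 genes with CACGTG had a median log2 FC of 0.22 on D0 and 0.23 on D28, and the 29 without it had 0.22 and 0.21. Their ranges on D0 were 0.08 to 0.31 and -0.09 to 0.77. Of the 3 genes over-expressed on D0, Ctsk and Npc2 had no CACGTG in this window, and Atp6v0d2 was not in the table.

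The change between D0 and D28 was tested as the effect of TiO2 on D28 minus its effect on D0. With limma, 0 of the 45 genes passed the adjusted p, where 0.0217% of all genes were higher and 0.00868% lower, and 0 passed an unadjusted p of 0.05, where 1.55% of all genes were higher and 1.89% lower. The largest difference was that of Npc2, at -0.36 ± 0.18 on the log2 scale (unadjusted p = 0.061), followed by Ctse at 0.27 ± 0.17. The effect of Ctsk differed by 0.17 ± 0.20 and that of Naglu by -0.05 ± 0.09. With the slide in the model the Npc2 difference was -0.46 ± 0.14 (unadjusted p = 0.0058, adjusted p = 0.48). Both days shared no rats, so each effect stands against its own controls.

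In control rats alone 0 of the 45 genes were called between D28 and D0 with limma (0.608% of all genes were). At an unadjusted p, Atp6ap1, Gla and Lipa were higher on D28 (6.52% of all genes), with log2 differences of 0.32 ± 0.11, 0.24 ± 0.09 and 0.24 ± 0.11, and Neu1 and Atp6v1b2 were lower (6.74%), at -0.38 ± 0.13 and -0.30 ± 0.12. In exposed rats 0 were called between the days either (0.352% of all genes were), and at an unadjusted p 0 were higher (3.83% of all genes) and Ctss alone was lower on D28 (3.88%), at -0.35 ± 0.11 (adjusted p = 0.30). With the slide as a block these counts differed: at an unadjusted p, 2 genes were higher on D28 in exposed rats (Atp6ap1 and Npc1, 5.36% of all genes) and 9 were lower (Cd63, Ctsa, Ctss, Ctsz, Gaa, Glb1, Lamp1, Scarb2 and Tfeb, 8.28%), and in control rats 3 were higher (Atp6ap1, Gla and Npc2, 7.19%) and 4 lower (Asah1, Ctsz, Mcoln1 and Neu1, 7.69%). In both groups 0 passed the adjusted p with the slide in the model.

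On every exposed array of D0 most of the 45 genes lay above the mean of the controls. Between 34 and 43 genes did so on the 5 exposed arrays and between 11 and 28 on the 6 control arrays. The median deviation over the genes was 0.14 to 0.31 on the exposed arrays and -0.063 to 0.048 on the controls. On D28 between 29 and 42 genes lay above the control mean on the exposed arrays and between 16 and 33 on the controls, with median deviations of 0.071 to 0.35 and -0.13 to 0.081. On D28, 1 exposed array had a median deviation below that of the highest control. The genes of 1 array share that array's RNA and normalization and are not replicates.

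**Figure D3:**
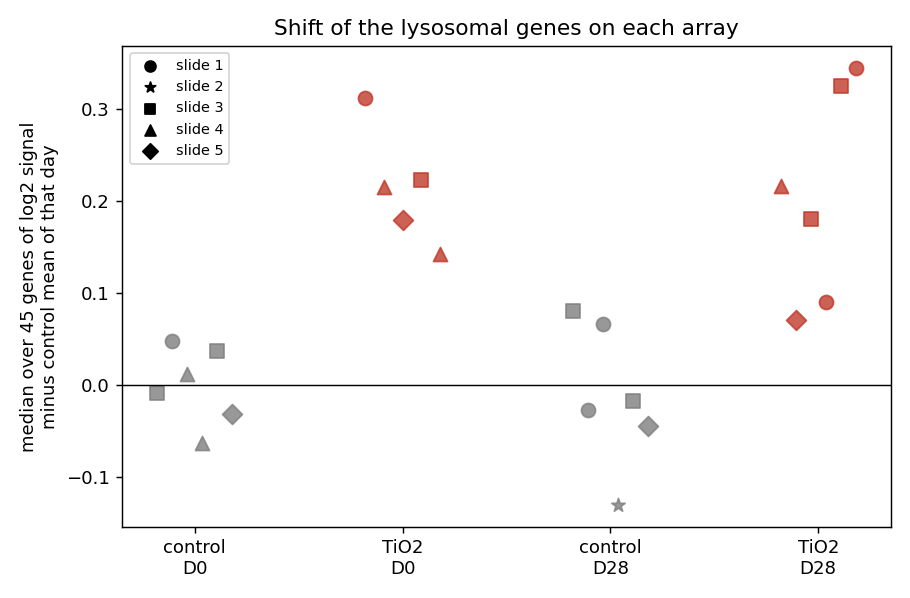
Median over the 45 lysosomal genes of the log2 signal minus the control mean of the same day (y axis), for each array by group (x axis); the marker shows the slide. Exposed arrays of D0 (0.14 to 0.31) all lie above the controls of D0, and those of D28 (0.071 to 0.35) meet the highest control of D28 at 0.081.

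The 23 arrays lay on 5 slides, and the slide took a median of 54.1% of the residual variance of the 45 genes, against 41.2% for all genes and 21.1% from the degrees of freedom alone. It took over 50% for 24 of the 45 genes. Psap, Lamp1, Ctsz, Asah1 and Atp6v0d1 were high on slide 3, with mean deviations from the group means of 0.19 to 0.37, and low on slide 5, with -0.22 to -0.42. Control replicate 4 of D28 was alone on slide 2 and was the only array read with another version of the scanner software. It had the lowest of the control signals of D28 for 19 of the 45 genes and the highest for 10 (25.5% and 20.2% of all genes), and lay 1.18 below its group mean for Acp2, 0.96 for Psap and 0.90 for Lamp1. These 3 genes had standard errors of 0.18 to 0.21 on D28, against a median of 0.11 for the 45 genes. A fixed slide block fits control replicate 4 of D28 exactly. The share taken by the slide thus includes the deviations of this array, and the estimates with that block do not use it.

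With the slide as a block, the genes called with the FC limit were the same 3 on D0 and the same 1 on D28, beside 1.35% and 0.682% of all genes higher. The adjusted p alone was then passed by 15 genes on D0 (2.79% of all genes) and 6 on D28 (1.47%). Those of D0 were the 7 named above with Acp5, Arsb, Cd63, Ctsa, Ctsb, Ctsh, Gaa and Glb1, and those of D28 were Arsb, Ctsb, Ctsk, Glb1, Naglu and Scarb2, without Ctse (adjusted p = 0.055). The median SE over the 45 genes was 0.091 on D0 with the slide and 0.11 without it. On D28, the log2 FC of Acp2 fell from 0.42 to 0.21 with the slide, that of Psap from 0.40 to 0.20 and that of Lamp1 from 0.23 to 0.06. The block takes control replicate 4 of D28, alone on its slide, out of these estimates, and the part of this in the change was not tested.

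**Figure D4:**
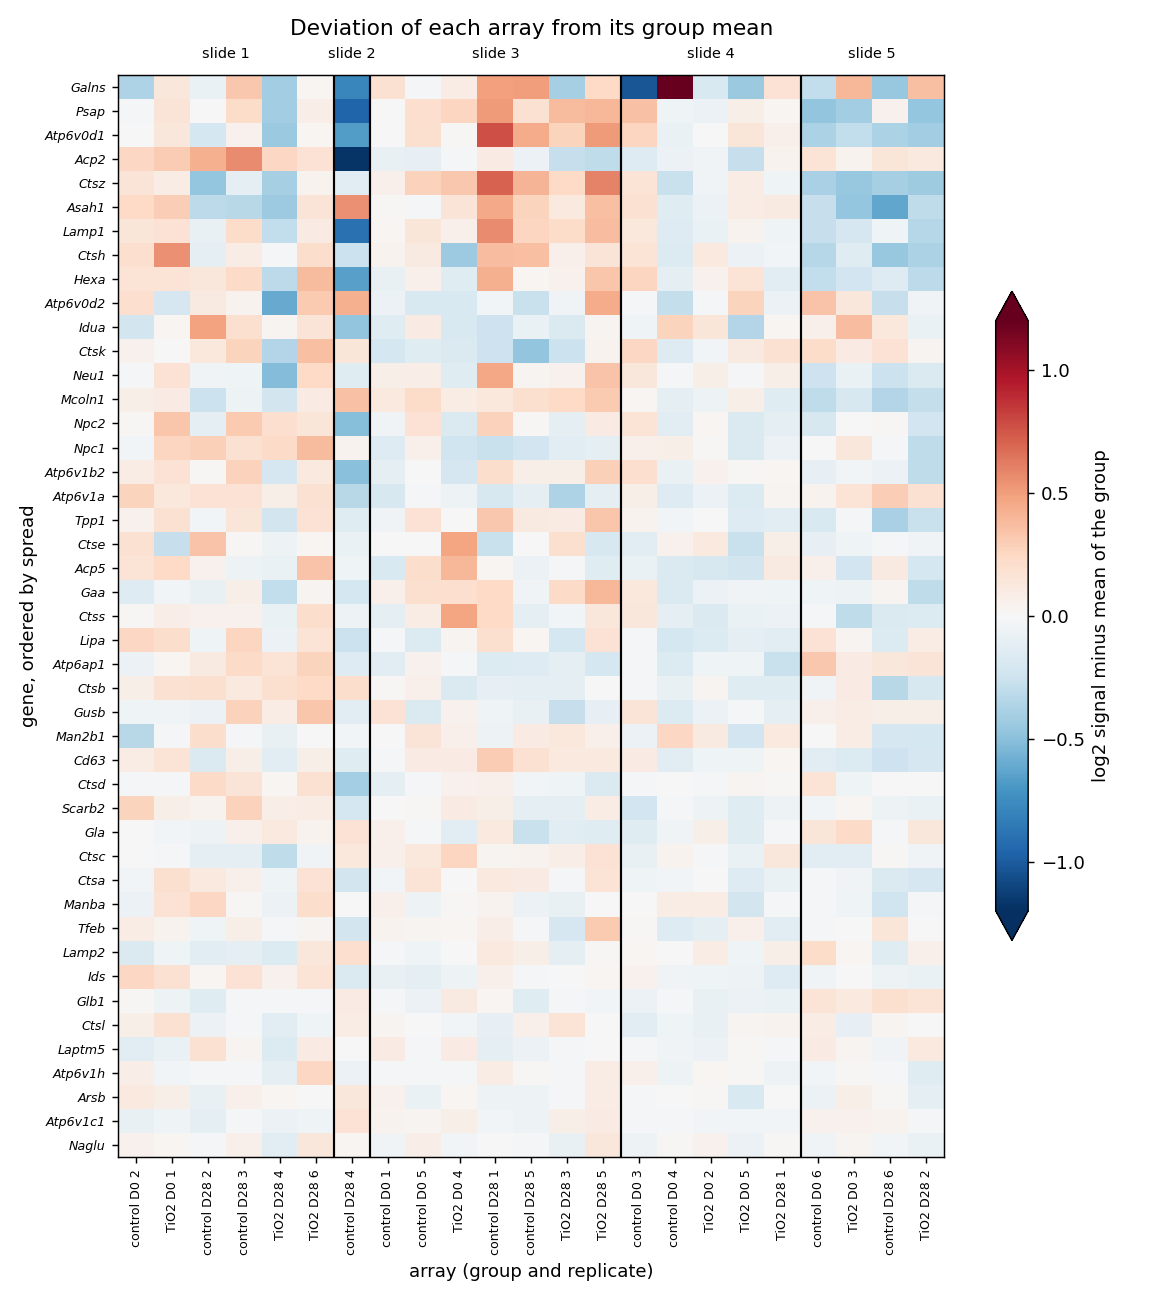
Deviation of the log2 signal from the mean of the array's group (colour, clipped at 1.2 in either direction) for the 45 lysosomal genes (y axis, from the most to the least variable) on the 23 arrays (x axis), which are ordered by slide, with black lines between slides. Control replicate 4 of D28 stands apart on slide 2, and Psap, Atp6v0d1, Ctsz, Asah1 and Lamp1 are mostly above 0 on slide 3 and below 0 on slide 5.

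Other genes of the same compartment were counted from lists drawn up from general knowledge, with earlier results of these data known. Of 40 further lysosomal enzymes and membrane proteins tested, 4 were higher at the adjusted p alone on D0 (1.51% of all genes) and 1 was lower (1.34%). On D28, 1 was higher (0.782%). The median log2 FC of the 40 was 0.05 on D0 and 0.08 on D28. Rnaset2, a lysosomal ribonuclease, rose on D0 (log2 FC 0.64 ± 0.16, adjusted p = 0.032; 0.58 with the slide as a block, just under the FC limit, adjusted p = 0.00049), and Hyal2, a hyaluronidase found at the cell surface as well, fell (-0.67 ± 0.16, adjusted p = 0.024). Among 19 further pump subunits 1 was higher at the adjusted p on each day (1.51% and 0.782% of all genes). It was Tcirg1, the a3 subunit known from osteoclasts, with a log2 FC of 0.34 on D0 and 0.33 on D28 (adjusted p = 0.023 and 0.035). With the slide as a block 7 of the 40 were higher on D0 and 4 on D28 at the adjusted p (2.79% and 1.47% of all genes). The medians of the further subunits were -0.01 and 0.05. Atp6v1g2 was on no array well above background.

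Genes that sort enzymes to the lysosome (16 tested, medians 0.03 and 0.11), cystatins, which inhibit cysteine cathepsins (10 tested, medians -0.15 and -0.04), and regulators around TFEB and mTOR (17 tested, medians 0.12 and 0.09) held no gene past the adjusted p on either day. With the slide as a block 1 regulator passed, Fnip2, a partner of folliculin, on D0 (log2 FC 0.36, adjusted p = 0.022). At an unadjusted p in limma the regulators held 2 genes higher on D0 and 3 on D28 (5.61% and 4.82% of all genes). The cystatins held 1 lower on each day (6.34% and 6.18% of all genes) and the sorting genes 0. Ctsk, Acp5 and Atp6v0d2 are also expressed in osteoclasts and giant cells. Of 14 listed genes known from these cells, 1 was higher at the adjusted p on each day (1.51% and 0.782% of all genes). This was Spp1, osteopontin, with a log2 FC of 2.20 ± 0.51 on D0 (adjusted p = 0.020) and 2.13 ± 0.49 on D28 (adjusted p = 0.033). The medians of that list were 0.23 and 0.12.

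**Figure D5:**
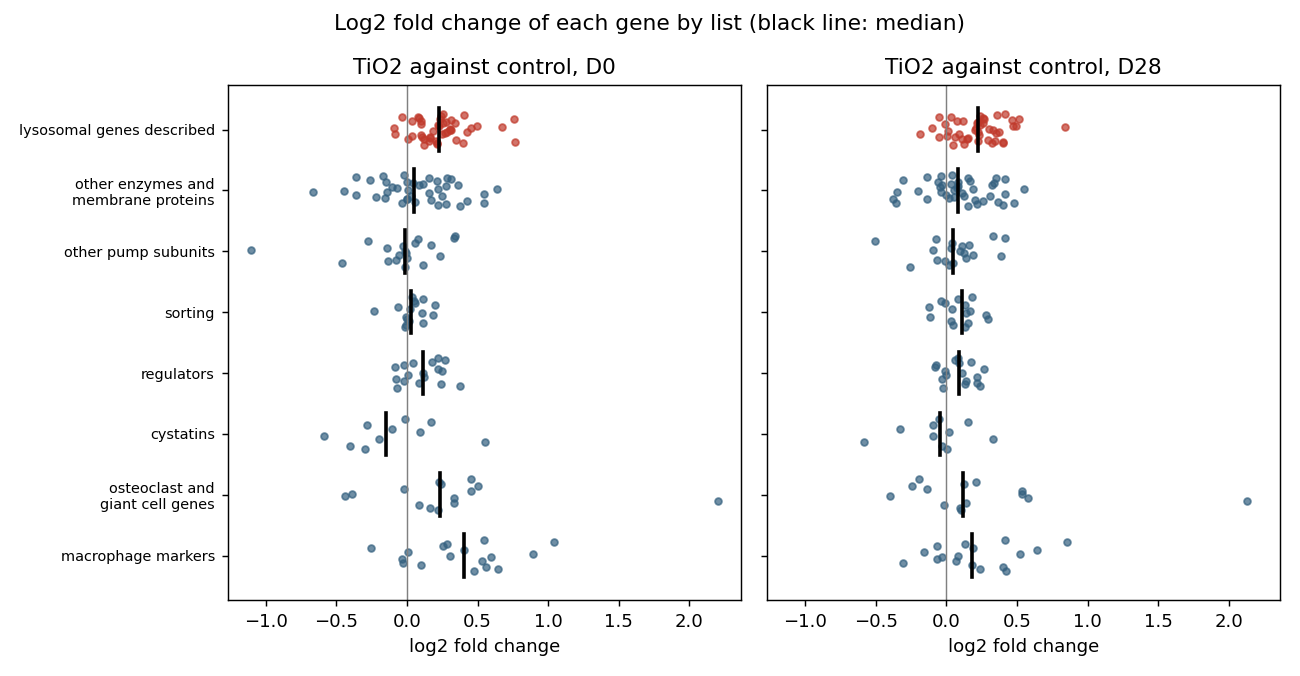
Log2 fold change (x axis) of each gene (points) in the 45 lysosomal genes described (red) and in 7 further lists (blue), on D0 (left) and D28 (right), with the median of each list as a black line; Cd68 is in 2 of the lists. The medians of the 45 genes (0.22 and 0.23) and of the macrophage markers (0.41 and 0.18) lie to the right of those for sorting genes (0.03 and 0.11) and further pump subunits (-0.01 and 0.05). The osteoclast and giant cell genes have medians of 0.23 and 0.12, on D0 level with the 45 genes.

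Markers of the cells that could carry these genes were counted in the same way. Of 17 macrophage markers tested 15 were well above background on all 23 arrays, while Marco was so on 2 exposed arrays of D0 alone and Chi3l3 on 1 control array of D28. In all, 14 had a log2 FC above 0 on D0 and 12 on D28, and their median log2 FC was 0.41 and 0.18. Siglec1 (log2 FC 0.89 ± 0.16) and C1qb (0.65 ± 0.13) rose on D0, and Cd68, itself a lysosomal membrane protein, passed the adjusted p on D0 (0.55) and D28 (0.42). At the adjusted p alone 3 macrophage markers were thus higher on D0 and 1 on D28 (1.51% and 0.782% of all genes). The slide as a block gave 5 and 1 (2.79% and 1.47%). The lowest log2 FC on D0 was that of Adgre1 (-0.25 ± 0.20), which stood at 0.19 ± 0.19 on D28. The lowest on D28 was -0.31, for another marker. At an unadjusted p in limma 7 markers were higher and 0 lower on D0 (5.61% and 6.34% of all genes). On D28, 5 were higher and 1 lower (4.82% and 6.18%). The summed intensity of the 17 markers was 29100 to 33990 in the controls of D0 and 35990 to 53110 in exposed rats. On D28 it was 29020 to 34750 and 34960 to 40450, without overlap on either day. The 9 type II pneumocyte markers had sums of 383100 to 422200 and 444400 to 515600 on D0, and 366800 to 445400 and 411500 to 494100 on D28. Of these markers 8 and 7 had a log2 FC above 0, with medians of 0.24 and 0.11. At the adjusted p 1 of them was higher on D0 (1.51% of all genes), or 2 with the slide as a block (2.79%), and 0 were on D28 (0.782%). At an unadjusted p in limma 5 were higher and 1 lower on D0 (5.61% and 6.34% of all genes). All 6 endothelial markers were below 0 on both days (medians -0.16 and -0.33), and their sums overlapped between exposed and control rats on each day. Tek, a receptor for angiopoietins, fell on D28 (log2 FC -0.46, adjusted p = 0.025), and with the slide as a block 2 endothelial markers were lower at the adjusted p on each day, Cdh5 and Cldn5 on D0 and Cdh5 and Tek on D28. No marker of neutrophils (10 tested, medians -0.02 and -0.12), T cells (9, 0.05 and 0.12), B cells (7, -0.15 and -0.07) or airway epithelium (6, -0.22 on each day) passed the adjusted p. With the slide as a block 1 airway marker did, Cyp2f4 on D0 (log2 FC -0.51, adjusted p = 0.024). The part that the number of macrophages or of other cells had in the values of the 45 genes was not tested.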

How the data were processed

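Total RNA of 23 accessory lobes was hybridised to single-colour Agilent arrays. Per the file headers, the deposited intensities came from Agilent Feature Extraction, in version 11.0.1.1 for 22 arrays and in version 12.0.1.1 for the other. They are background-subtracted processed signals, used here in preference to the authors' quantile normalized table. The genes and lists were chosen with earlier results of these data known. Processed signals were taken to log2 and quantile normalized. The filter kept 40420 of 45598 probes, those brighter on 5 or more arrays than the 95th percentile of the 308 negative controls. Their values were averaged per symbol into 23031 genes. Gene names came from 1 file, matched by probe. Between 69.5% and 77.9% of spots were well above background, and the number of arrays limits the precision. limma 3.58.1 (R 4.3.3) fitted 4 group means, with 19 residual degrees of freedom and Benjamini-Hochberg adjustment over all genes. Each array was treated as 1 rat, and the p-values measure the spread between arrays. Genes past the adjusted p of 0.05 on either day, Ctsd, Atp6v0d1 and Tfeb were described in full. Alternatives were normexp background correction, the deposited table, other filters, single-day fits, slide blocks, array weights, a robust trend and leaving out each array. The code was tested on simulated data.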

Additional observations from a re-analysis of the deposited data

How the results depend on the processing

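The 3 genes over-expressed on D0 numbered 3 under all alternatives run. The number past the adjusted p alone and higher on D0 was 7 (1.51% of all genes), and it was 11 with normexp background correction (1.99% of all genes), 11 with the deposited table (1.56%), 15 with the slide as a fixed block (2.79%), 15 as a random block (2.54%), 14 with array quality weights (3.28%) and 11 with a robust intensity trend (1.71%). On D28 it was 3 (0.782%), and it was 8 with normexp (1.03%), 6 with the deposited table (0.854%), 7 with a filter on probes well above background (1.49%), 6 and 8 with the slide as a fixed and a random block (1.47% with either), 5 with the robust trend (0.96%) and 0 when only the arrays of D28 were fitted (0.161%). In that fit 0 genes were over-expressed on D28 instead of 1, 45 of all genes on the array passed the adjusted p, and 13 of the lysosomal genes were higher (3.75% of all genes) and 0 lower at an unadjusted p in limma. The cause of these changes was not tested. Leaving out 1 array at a time, the number past the adjusted p alone ranged from 4 to 9 on D0, with 4 without exposed replicate 4 of D0, and from 2 to 5 on D28, with 5 without control replicate 3 of D28. The number over-expressed on D28 ranged from 1 to 2, with 2 without exposed replicate 4 of D28. Shares of all genes were not computed with an array left out, so these ranges cannot be set against the whole array. Over all alternatives, the adjusted p of Ctsk ranged from 0.00099 to 0.029 on D0 and from 0.00029 to 0.065 on D28, that of Npc2 on D0 reached at most 0.0094, and that of Atp6v0d2 ranged on D0 from 0.00037 to 0.044. Within slides, 32 of the 45 genes were higher in exposed rats on all 4 slides of D0, 1 was lower on all and 12 were mixed. On the 3 slides of D28 these counts were 27, 3 and 15. The same counts were not made over all genes, so no share stands beside them. Among the 11 genes described in full or past the adjusted p, the difference reversed for Atp6v0d1 on D0 within slide 3 (-0.0027), for Ctse on D0 within slide 1 (-0.23) and for Tfeb on D28 within slide 5 (-0.017), none of which was called. With the replicate number as a block, 5 genes on D0 (1.22% of all genes) and 3 on D28 (0.53%) were higher with an adjusted p below the limit, Ctss (0.082), Scarb2 (0.060) and, on D28, Ctse (0.053) no longer did, the genes over-expressed numbered 3 and 1, and the medians were 0.24 and 0.23. Same-numbered arrays correlated between -0.23 and 0.46, and 2 of 11 correlated best with their own number. The slide was not taken out of these correlations, so they cannot decide whether the numbers pair arrays. The main fit paired none.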
